A study of Mus musculus with 60 samples.

Results

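The tissue inhibitors of metalloproteinases, Timp1, Timp2, Timp3 and Timp4, were followed through 60 RNA-seq libraries of mouse fibroblasts. They are 4 of the 56980 gene identifiers in each of 2 count tables, and they were found there by their gene identifiers. In D/KO fibroblasts, Timp1 was lower and Timp3 higher after 4 days of doxycycline, which induces the reprogramming factors. In D/KO cells, inhibitors of the TGFb receptor ALK5 lowered Timp1, raised Timp2 and brought Timp4 from 0 counts in the D/KO control libraries to a low level. Ascorbic acid with a GSK3 inhibitor, given before any factor was induced, lowered Timp3 in D/KO and WT cells alike.

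Timps are small secreted proteins that block matrix metalloproteinases (the Mmp genes) by filling their active site. In connective tissue they set how far fibroblasts and invading cells can cut collagen and other matrix, and each member has further roles of its own. Timp1 is a soluble inhibitor that pairs with pro-Mmp9 and binds the tetraspanin Cd63. Timp2 takes part in the activation of pro-Mmp2 by Mmp14 at the cell surface. Timp3 stays bound to the matrix and also blocks Adam17 and the aggrecanases Adamts4 and Adamts5. Timp4 has the narrowest tissue range and is best known from heart, fat and brain.

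All coordinates are those of the deposited gene models on GRCm39. Timp1 (ENSMUSG00000001131) spans chrX:20736405-20740974 on the plus strand with 888 exonic bases, and it is X-linked. Timp2 (ENSMUSG00000017466) spans chr11:118191895-118246566 on the minus strand with 3896 exonic bases. Timp3 (ENSMUSG00000020044) spans chr10:86136236-86185370 on the plus strand and is the longest of the 4, with 8144 exonic bases. Timp4 (ENSMUSG00000030317) spans chr6:115218853-115229166 on the minus strand with 5894 exonic bases. Timp1, Timp3 and Timp4 each lie inside a synapsin gene on the opposite strand, namely Syn1, Syn3 and Syn2. Timp3 shares 1733 exonic bases with Syn3 and Timp4 shares 90 with Syn2, while Timp1 shares 0 with Syn1. Whether the counting used strand is not given in the sources used here. Syn3 held 246 counts over all reprogramming libraries and Syn2 held 83, so few reads were assigned to these partners. These counts do not show whether reads over the shared bases were left out of both genes.

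The sequences just before Timp1 and Timp3 are shown because these members moved in opposite directions in several comparisons. Both were taken from the RefSeq promoter table and placed on GRCm39 by a single exact match, and each was trimmed to the bases outside annotated exons. The Timp1 stretch is chrX:20736155-20736315, plus strand, and the Timp3 stretch is chr10:86136026-86136235, plus strand. Capitals mark matches to an Ets core (CAGGAAG) and, in Timp1, to a CCAAT box read on the opposite strand (ATTGG).
Timp1: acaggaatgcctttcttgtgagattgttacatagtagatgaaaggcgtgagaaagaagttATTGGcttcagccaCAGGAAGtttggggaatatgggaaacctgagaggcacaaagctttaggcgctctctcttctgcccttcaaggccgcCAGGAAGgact
Timp3: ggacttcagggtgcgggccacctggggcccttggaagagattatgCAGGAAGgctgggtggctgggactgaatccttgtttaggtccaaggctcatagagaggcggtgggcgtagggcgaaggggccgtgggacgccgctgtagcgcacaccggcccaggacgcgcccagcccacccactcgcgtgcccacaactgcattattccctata

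The Timp1 stretch is 161 bases long with 47.8% GC and 3 CG dinucleotides, and the Timp3 stretch is 210 bases long with 63.8% GC and 13 CG dinucleotides. The Ets letters lie 176 and 100 bases before the deposited start of Timp1 and 165 bases before that of Timp3, and the CCAAT letters lie 190 bases before Timp1. In windows of the same length and place, the Ets letters occur in 6.53% (Timp1 window) and 8.91% (Timp3 window) of the 32851 promoters of the table, and CCAAT in 21.6% (Timp1 window). In all, 9 motifs were searched on both strands. Besides Ets and CCAAT these were the AP-1 consensus, written TGANTCA, and an AP-1 site of the kind known from Timp1, written TGAGTAA. The core of the Smad-binding box was searched as CAGACA and the site of TCF and LEF factors as CTTTGAT. The GC box was searched as GGGCGG, the TATA box of promoters as TATAAA and the E-box as CACGTG. These other 7 have no match in either window. The Timp1 window ends at 20736315 and the deposited start is 20736405, so the bases nearest the start were trimmed away. For those bases the search says nothing, also on the AP-1 site. A match describes the letters only.

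The libraries fall into 36 of the reprogramming experiment, in 12 groups, and 24 of the inhibitor experiment, in 8 groups, with 3 libraries a group. The reprogramming D/KO cells were tail tip fibroblasts of male mice of 8 weeks with Ercc1 (d/-), a truncated and a null allele of a DNA repair nuclease subunit, plus the 4FJ transgene. The reprogramming WT cells were 4FJ (+/-) OCT4-GFP fibroblasts of female mice of 22 weeks, so genotype, sex, age, reporter and line cannot be told apart. The 4FJ transgene is a doxycycline-driven OKSM cassette (Oct4, Klf4, Sox2 and c-Myc) in Col1a1, switched on by an rtTA in ROSA26. Cells were taken at day 0, or after 2 or 4 days of doxycycline at 2 µg/ml. No group got doxycycline without the transgene, and none is labelled as kept for 2 or 4 days without doxycycline. The factors, doxycycline itself and days in culture therefore cannot be told apart. VC is ascorbic acid at 50 µg/ml with CHIR-99021, an inhibitor of GSK3, at 3 µM.

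The inhibitor D/KO cells carried Ercc1 (d/-) and no label of the transgene, and came from female mice of 4 weeks. They were left as control or kept for 3 days in Repsox or Vactosertib at 0.1 µM, or A83-01 or DMH-1 at 1 µM. Repsox, Vactosertib and A83-01 inhibit ALK5, the type I receptor of TGFb, and DMH-1 inhibits ALK2, a type I receptor of bone morphogenetic proteins. The study describes Vactosertib as acting on both ALK5 and ALK2, and it is grouped here with the ALK5 inhibitors. The WT tail tip and WT skin controls were Ercc1 (+/+) cells of female mice of 14 weeks. A last group, WT 4F TGFB, was 4FJ (+/-) OCT4-GFP cells of female mice of 22 weeks with the label TGFB and no matched untreated group in that table. The labels do not say that libraries of a group came from separate cultures or animals, so p-values measure the spread between libraries, which may be technical.

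The reprogramming libraries held 16538374 to 18484951 counts each and the inhibitor libraries 17102639 to 30599138. All 12 fibroblast markers reached 1 CPM (CPM being the usual scaling of counts to library size, here with TMM factors) in every group. Ercc1 itself averaged 9.68 to 15 CPM in the reprogramming D/KO groups and 17.6 to 24.3 CPM in the WT groups, but 20.6 CPM in the inhibitor D/KO control against 18 CPM in the WT tail tip control. The total count of Ercc1 thus separated the genotypes in the first table only. The libraries farthest from their group mates were, in the inhibitor table, WT skin replicate 1, Repsox replicate 2, WT skin replicates 2 and 3 and WT tail tip replicate 2, and in the reprogramming table D/KO day 4 replicate 3, D/KO day 0 + VC replicate 2 and WT day 2 replicate 2.

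Across libraries of a group, the levels of Timp1 and Timp3 moved with gene length in the inhibitor table, and less clearly in the reprogramming table. Genes with under 1000 exonic bases sat, by their median, between -0.73 and 1.23 (log2) from their group mates in the inhibitor libraries, and between -0.52 and 0.46 in the reprogramming libraries. Timp1, with its short mRNA, deviated to the same side as the short genes in 23 of 24 inhibitor libraries and 27 of 36 reprogramming libraries. Timp3, the longest member, deviated to the opposite side in 22 of 24 and 22 of 36. Within groups, Timp1 and Timp3 had a Pearson r of -0.47 over the 36 reprogramming libraries and deviated to opposite sides in 21 of them. In the inhibitor table they mirrored each other (r = -0.98 over 24 libraries, a description of libraries that share this length trend). An alternative fit with this trend removed from each library was added after the data were seen, and its values are given wherever it changes a call. The same holds for a fit without the 2 farthest inhibitor libraries, WT skin replicate 1 and Repsox replicate 2, which is meant below by the libraries that stand apart left out.

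**Figure D1:**
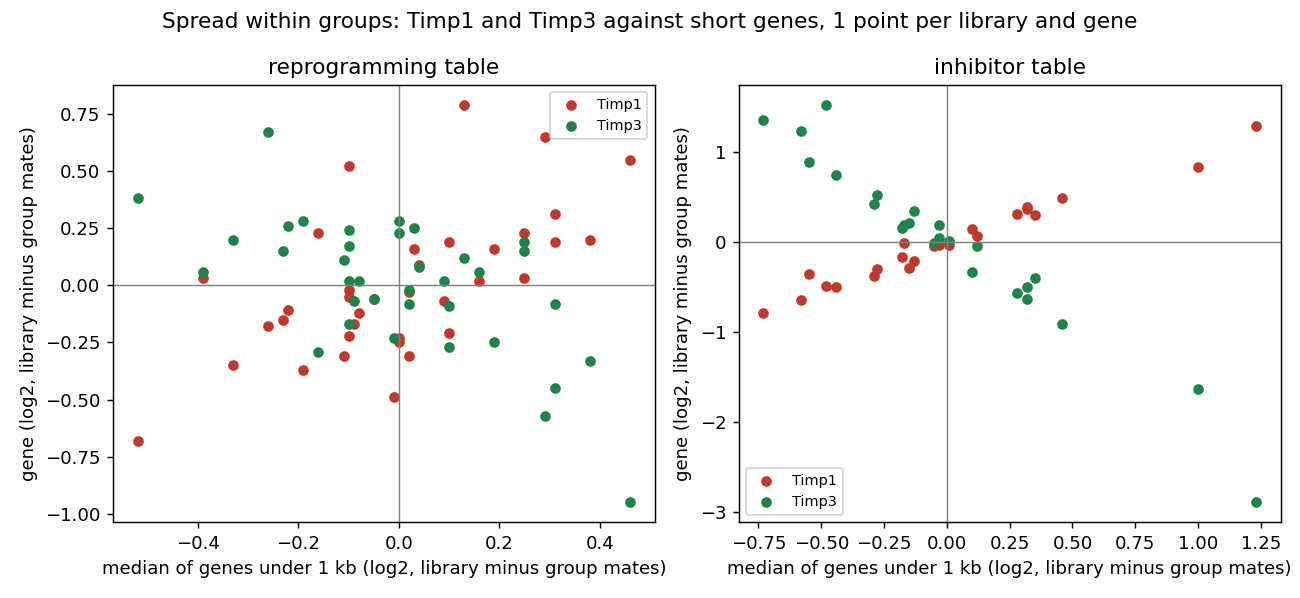
Each point is a library, with the median deviation of genes under 1 kb from the group mates on the horizontal axis and the deviation of Timp1 (red) or Timp3 (green) on the vertical axis, both in log2. In the inhibitor table, WT skin replicate 1 lies at 1.23 for short genes, at 1.29 for Timp1 and at -2.89 for Timp3.

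In D/KO cells without VC, Timp1 was lower and Timp3 higher by day 4 of reprogramming, and Timp2 passed through a peak at day 2. Timp1 stood at 316, 343 and 570 CPM at day 0, at 301, 314 and 440 CPM at day 2, and at 177, 199 and 216 CPM at day 4. The day 4 libraries were all below those of day 0 and day 2. Timp1 fell by 1.05 ± 0.19 (log2, SE) from day 0 to day 4, which is 2.08-fold lower (adjusted p = 1.78e-05), while at day 2 its difference of -0.22 ± 0.18 did not pass (adjusted p = 0.413). Fewer cells with the mRNA and less mRNA per cell cannot be told apart in such bulk libraries.

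Timp3 went the other way and kept climbing. Its level was 679, 794 and 798 CPM at day 0, then 1020, 1020 and 1150 CPM at day 2, and 1370, 1640 and 1820 CPM at day 4, with no overlap between the days. The rise was 0.49 ± 0.17 (log2) at day 2 (adjusted p = 0.0283) and 1.09 ± 0.17 at day 4, or 2.12-fold (adjusted p = 3.04e-06). The day 2 call was lost without D/KO day 0 replicate 1 (adjusted p = 0.118) or without D/KO day 2 replicate 3 (0.0947). Between days 2 and 4 Timp3 rose by 0.59 ± 0.17 (adjusted p = 0.02), and this step did not pass without D/KO day 2 replicate 1 (0.0783), day 2 replicate 2 (0.0805) or day 4 replicate 1 (0.129).

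Timp2, the most abundant member in CPM, stood at 2260, 2280 and 2450 CPM at day 0, at 3150, 3290 and 3320 CPM at day 2 and at 2390, 2470 and 2680 CPM at day 4. The day 2 libraries were above all others, and those of day 0 and day 4 overlapped. Timp2 rose by 0.48 ± 0.09 (log2) to day 2 (adjusted p = 8.76e-05) and fell by 0.37 ± 0.09 from day 2 to day 4 (adjusted p = 0.00560, and 0.0643 in a fit of the 2 groups alone). Its net difference over 4 days was 0.11 (95% interval -0.08 to 0.30). Of Timp1 to Timp3, 2 changed at day 2, 2 at day 4 and 3 between days 2 and 4, where 27.4%, 37% and 9.57% of the 15832 tested genes did.

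**Figure D2:**
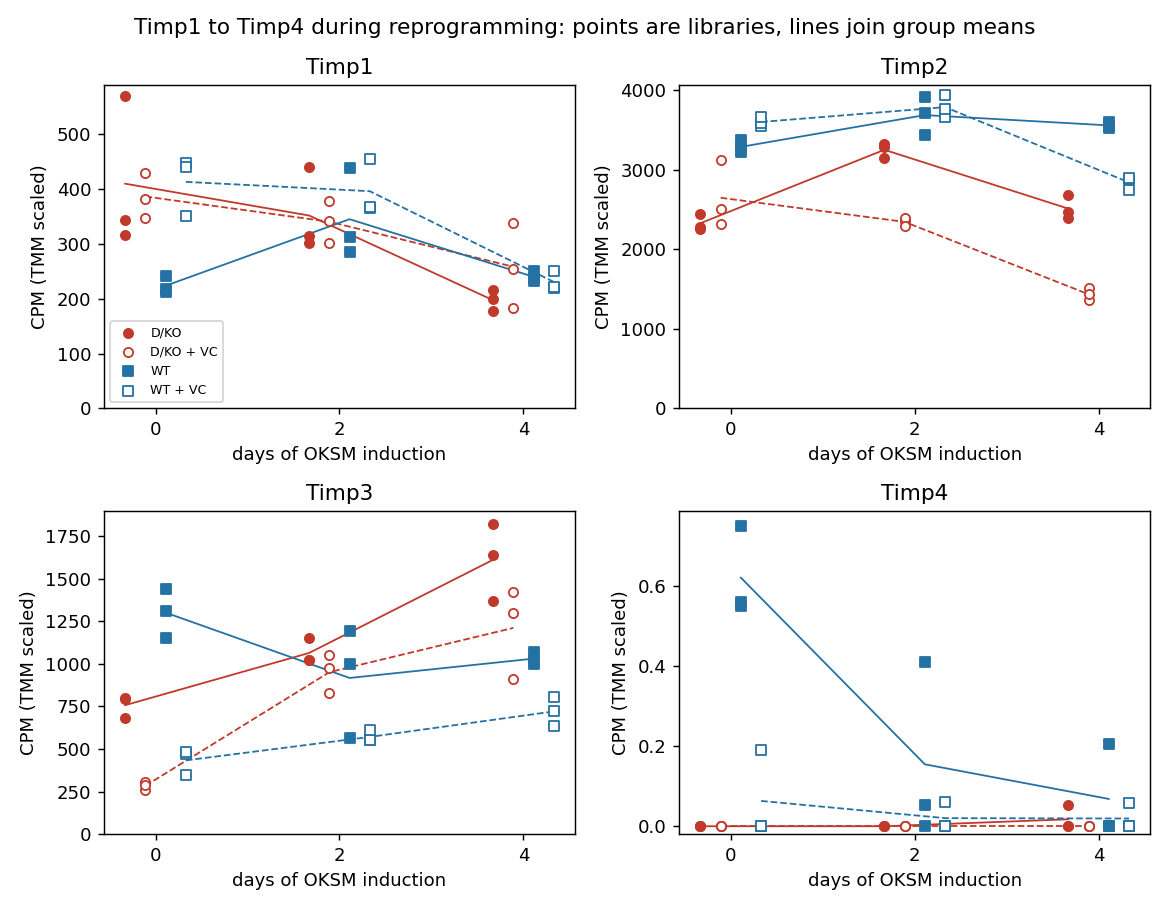
Points are libraries in CPM (TMM scaled) by days of OKSM induction for each member, red circles for D/KO and blue squares for WT, open with VC, and lines join the means of 3 libraries. Timp3 climbs in both D/KO courses and starts from 262 to 304 CPM with VC, while Timp4 is above 0 mainly in the WT cells at day 0.

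With VC, D/KO cells showed a steeper rise of Timp3, from a lower start, and a loss of Timp2. Timp3 stood at 262, 286 and 304 CPM at day 0 with VC, at 828, 974 and 1050 CPM at day 2 and at 911, 1300 and 1420 CPM at day 4. All libraries of days 2 and 4 were above those of day 0, and days 2 and 4 overlapped. Timp3 rose by 1.74 ± 0.18 (log2) at day 2 (adjusted p = 2.24e-10) and by 2.09 ± 0.18 at day 4, or 4.26-fold (adjusted p = 2.02e-12). Much of this distance was set by the start. Measured from day 0 without VC, the rise of Timp3 was 0.33 at day 2 (adjusted p = 0.114) and 0.68 at day 4 (adjusted p = 0.00115).

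Timp2 stood at 2320, 2510 and 3120 CPM at day 0 with VC, at 2290, 2360 and 2390 CPM at day 2 and at 1360, 1440 and 1510 CPM at day 4. The day 4 libraries were the lowest of all 12 reprogramming groups. Timp2 fell by 0.88 ± 0.09 (log2) over 4 days with VC, or 1.84-fold (adjusted p = 2.95e-10), and most of it came after day 2 (a fall by 0.71 ± 0.09, adjusted p = 3.18e-07). Timp1 stood at 348, 382 and 429 CPM at day 0 and at 183, 254 and 338 CPM at day 4, and fell by 0.58 ± 0.19 (adjusted p = 0.00819). That call was lost without D/KO day 4 + VC replicate 1 (a fall by 0.38, adjusted p = 0.107), the library in which short genes sat at -0.52. Timp2 at day 2 differed by -0.17 (adjusted p = 0.121) and passed in DESeq2 (0.0404) and without D/KO day 0 + VC replicate 3 (0.0276). Between days 2 and 4 with VC, Timp1 (-0.40, adjusted p = 0.162) and Timp3 (0.35, 0.196) did not pass, but both did with no filter (0.00834 and 0.0348) and without D/KO day 4 + VC replicate 3 (0.0234 and 0.0480). Among Timp1 to Timp3, 1 changed at day 2 and 3 at day 4, and 1 between days 2 and 4, beside 47.4%, 54.1% and 15.6% of all tested genes.

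The summed level of the 12 fibroblast markers was also lower at the end of both D/KO courses. It ran from 80700 to 120000 CPM at day 0 and from 37700 to 39400 CPM at day 4, and with VC from 185000 to 255000 CPM at day 0 and from 33400 to 34600 CPM at day 4. The 9 keratinocyte markers summed to between 3.87 and 5.42 CPM at day 0 and to between 67.9 and 81.9 CPM at day 4, with 2 of 9 and then 5 of 9 at 1 CPM or more, and with 2 and then none at 0. With VC they summed to between 8.56 and 14.2 CPM at day 0 and to between 450 and 572 CPM at day 4, with 3 of 9 and then 6 of 9 at 1 CPM or more, and with 4 and then 1 at 0. The 5 smooth muscle and pericyte markers summed to 147 to 190 CPM at day 0 and 345 to 413 CPM at day 4, with 4 at 1 CPM or more at both times and with none and then 1 at 0. With VC they summed to 28.6 to 41.1 CPM and then 206 to 250 CPM, with 3 and then 2 at 1 CPM or more and none at 0. The 5 endothelial markers summed to 611 to 670 CPM at day 0 and 343 to 397 CPM at day 4, and with VC to 228 to 266 CPM and then 552 to 777 CPM, with 4 or 5 at 1 CPM or more and none at 0. The part of these shifts in the Timp changes was not tested.

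In WT cells without VC, Timp1 was higher at day 2, and none of Timp1, Timp2 and Timp3 passed at day 4. Timp1 was at 212, 218 and 241 CPM at day 0, at 285, 312 and 438 CPM at day 2 and at 233, 237 and 250 CPM at day 4. The day 2 libraries stood above both other days. The rise of 0.62 ± 0.19 (log2) at day 2 passed (adjusted p = 0.0232), as did the fall by 0.52 ± 0.19 from day 2 to day 4 (adjusted p = 0.0395). Neither held in the fit without the length trend, where Timp1 differed by 0.34 at day 2 (adjusted p = 0.158) and by 0.06 between days 2 and 4 (adjusted p = 0.832). In these contrasts the short genes themselves moved by a median of 0.29 and -0.62.

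The Timp1 step at day 2 in WT was also lost without WT day 2 replicate 2 (0.41, adjusted p = 0.256), WT day 0 replicate 1 (0.0851) or WT day 0 replicate 3 (0.0995). The later step was lost without WT day 2 replicate 2 (a fall by 0.31, adjusted p = 0.352) or without WT day 4 replicate 1 (0.0766), 2 (0.110) or 3 (0.104). From day 0 to day 4 Timp1 differed by 0.10 (95% interval -0.27 to 0.48). Without the length trend this became 0.40 (adjusted p = 0.0482).

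Timp3 in WT was at 1150, 1310 and 1440 CPM at day 0, at 564, 996 and 1190 CPM at day 2 and at 1000, 1020 and 1070 CPM at day 4. The day 4 libraries were all below those of day 0. Its differences of -0.51 ± 0.17 (log2) at day 2 (adjusted p = 0.0508) and -0.33 ± 0.17 at day 4 (adjusted p = 0.158) did not pass, whereas without the length trend both did (-0.475, adjusted p = 0.0234, and -0.435, adjusted p = 0.0227). Timp3 at day 2 also passed in DESeq2 (adjusted p = 0.0267), with no filter (0.000282), with DESeq2's size factors (0.0480), with 10 counts asked of every library (0.0455), and without WT day 0 replicate 2 (adjusted p = 0.0465) or WT day 2 replicate 1 (-0.736, adjusted p = 0.00463). At day 4 Timp3 passed with no filter (0.0273) and in a fit of the 2 groups alone (0.000133).

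Timp2 in WT remained between 3220 and 3920 CPM over the 3 days, and no step passed, except that the day 4 difference of 0.11 passed in a fit of the 2 groups alone (adjusted p = 0.0318). Of Timp1 to Timp3 in WT, 1 changed at day 2, 0 at day 4 and 1 between days 2 and 4, where 10.6%, 24.5% and 21.5% of all tested genes did. DESeq2 gave the same 0 at day 4, and at an unadjusted p none of the 3 was under 0.05 either (0.590, 0.226 and 0.0593).

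With VC, WT cells moved in the same directions as D/KO cells by day 4, with smaller steps in Timp2 and Timp3. Timp3 was at 349, 469 and 482 CPM at day 0 with VC, at 550, 551 and 612 CPM at day 2 and at 632, 722 and 807 CPM at day 4, with no overlap between days. Timp3 rose by 0.73 ± 0.17 (log2) over 4 days (adjusted p = 0.000673), and its day 2 difference of 0.40 ± 0.17 did not pass (adjusted p = 0.0819), though it did with no filter (0.00434) and in a fit of the groups alone (0.0142). Against day 0 without VC the sign turned: Timp3 was lower by day 4 (-0.85, adjusted p = 0.000121) and by day 2 (-1.19, adjusted p = 9.43e-07).

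Timp1 with VC in WT stood at 350, 441 and 448 CPM at day 0 and at 219, 222 and 251 CPM at day 4, with no overlap. Timp1 fell by 0.84 ± 0.19 (adjusted p = 0.000340), but against day 0 without VC the difference was 0.04 (adjusted p = 0.885), and without the length trend the fall was 0.45 (-0.452, adjusted p = 0.0132). From day 2 to day 4 with VC the fall by 0.78 ± 0.19 (adjusted p = 0.00264) was lost without the length trend (-0.382, adjusted p = 0.0680). Short genes moved by a median of -0.40 in this contrast. Timp2 fell by 0.34 ± 0.09 (adjusted p = 0.00256), from 3550, 3590 and 3670 CPM to 2750, 2880 and 2900 CPM, and this call was lost against day 0 without VC (-0.213, adjusted p = 0.0624). Among Timp1 to Timp3, 0 changed at day 2, 3 at day 4 and 2 between days 2 and 4, beside 27.5%, 44.7% and 20.1% of all tested genes. DESeq2 also called none at day 2, and Timp3 alone had an unadjusted p under 0.05 there (0.0258).

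Markers of other cell types also moved in the WT courses. With VC, the fibroblast marker sum ran from 157000 to 173000 CPM at day 0 and from 61600 to 72700 CPM at day 4, with all 12 markers at 1 CPM or more. The 5 endothelial markers summed to 5.78 to 7.58 CPM and then 98.4 to 116 CPM, with 1 of 5 at 1 CPM or more at both times and with none and then 1 at 0. The 5 smooth muscle and pericyte markers went from 18.1 to 20.7 CPM to 96.4 to 113 CPM, with 3 at 1 CPM or more and 1 at 0 at both times. Without VC the endothelial sum was 14.9 to 17.6 CPM at day 0 and 95.6 to 95.9 CPM at day 4, and the smooth muscle sum 21.4 to 25.4 CPM and then 109 to 121 CPM. Their part in the WT results was not tested.

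The courses of D/KO and WT were compared directly by the difference of their changes. For Timp3 the change in D/KO lay above that in WT at every point, where the WT means lay below day 0 without VC and above it with VC. The differences were 1.00 ± 0.24 (log2) at day 2 (adjusted p = 0.00722), 1.42 ± 0.24 at day 4 (5.60e-05), 1.35 ± 0.24 at day 2 with VC (0.000139) and 1.36 ± 0.24 at day 4 with VC (5.00e-05). These 4 differences share day 0 libraries in pairs. For Timp1 the difference was -0.845 ± 0.261 at day 2 (adjusted p = 0.0430) and -1.155 ± 0.262 at day 4 (adjusted p = 0.00190), and with VC it did not pass at day 4 (0.26, 95% interval -0.27 to 0.79). For Timp2 only the day 4 contrast with VC passed, with D/KO lower by 0.54 ± 0.13 (adjusted p = 0.00153).

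The Timp1 difference at day 2 was fragile. It did not pass without the length trend (-0.634, adjusted p = 0.0592), in a fit of the groups alone (0.111) or, with adjusted p between 0.0525 and 0.219, without D/KO day 0 replicate 3, D/KO day 2 replicate 1 or 2, WT day 0 replicate 1, 2 or 3, or WT day 2 replicate 2. From day 0 without VC, Timp1 differed by -1.09 at day 2 with VC (adjusted p = 0.00236) and by -0.71 at day 4 with VC (adjusted p = 0.0504). Of Timp1 to Timp3, 2 differed between genotypes in their change at day 2, 2 at day 4, 1 at day 2 with VC and 2 at day 4 with VC, beside 6.54%, 14.3%, 13.9% and 29.4% of all tested genes.

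VC alone, at day 0 and with no factor induced, lowered Timp3 in both lines. In D/KO the libraries went from 679, 794 and 798 CPM to 262, 286 and 304 CPM, and in WT from 1150, 1310 and 1440 CPM to 349, 469 and 482 CPM, with no overlap in either. Timp3 fell by 1.42 ± 0.17 (log2), or 2.67-fold, in D/KO (adjusted p = 6.27e-08) and by 1.59 ± 0.18, or 3.00-fold, in WT (adjusted p = 6.22e-09). Timp1 rose by 0.88 ± 0.19 in WT (adjusted p = 0.000350) and differed by -0.09 ± 0.18 in D/KO (adjusted p = 0.794). Timp2 passed in neither line, with 0.18 in D/KO (adjusted p = 0.142, and 0.0370 without D/KO day 0 + VC replicate 3) and 0.13 in WT (0.312). Among Timp1 to Timp3, 1 changed with VC at day 0 in D/KO and 2 in WT, where 26.1% and 29.4% of all tested genes did. The fibroblast marker sum was higher with VC in both lines, between 157000 and 173000 CPM in WT with VC against 52900 to 54600 CPM without it. Other marker sums moved both ways with VC. The 9 keratinocyte markers summed to 3.87 to 5.42 CPM without VC and to 8.56 to 14.2 CPM with it in D/KO. In WT they summed to 22.3 to 29.4 CPM and to 40 to 44.1 CPM. In each line 2 and then 3 were at 1 CPM or more, with 2 and then 4 at 0 in D/KO and 4 at 0 in WT. Some sums were lower with VC. In D/KO the 5 smooth muscle and pericyte markers went from 147 to 190 CPM to 28.6 to 41.1 CPM, with 4 and then 3 at 1 CPM or more. The 5 endothelial markers went from 611 to 670 CPM to 228 to 266 CPM in D/KO, with 4 and then 5 at 1 CPM or more, and from 14.9 to 17.6 CPM to 5.78 to 7.58 CPM in WT, with 1 in each, and none was at 0 in these groups. The part of these shifts in the VC results was not tested.

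The effect of VC was also taken at days 2 and 4 of induction, and how it differed from that at day 0 was not tested. At day 2 Timp3 differed by -0.16 ± 0.17 in D/KO (adjusted p = 0.535) and was lower by 0.68 ± 0.17 in WT (-0.68, adjusted p = 0.00285). The WT call was lost without WT day 2 replicate 1 (-0.45, adjusted p = 0.0554). At day 4 Timp3 differed by -0.41 in D/KO (adjusted p = 0.0597) and by -0.52 in WT (adjusted p = 0.0240). The D/KO value passed without the length trend (adjusted p = 0.0152), with no filter (0.00245), without D/KO day 4 + VC replicate 1 (0.0273) and without D/KO day 4 replicate 2 (0.0316), and the WT value was lost without WT day 4 + VC replicate 2 (0.123) or 3 (0.0598) or WT day 4 replicate 1 (0.0697).

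Timp1 at day 4 in D/KO differed by 0.39 (adjusted p = 0.102) and passed with no filter (0.00627) and without D/KO day 4 + VC replicate 1 (0.0175). Timp2 was lower with VC in D/KO at day 2 (-0.47 ± 0.09, adjusted p = 0.000161) and at day 4 (-0.81 ± 0.09, adjusted p = 9.33e-09), and in WT at day 4 (-0.33 ± 0.09, adjusted p = 0.00773). The library ranges did not overlap in these 3 comparisons. Of Timp1 to Timp3, 1 differed with VC at day 2 in D/KO and 1 in WT, and 1 at day 4 in D/KO and 2 in WT, beside 25.3%, 26.6%, 34.5% and 22.4% of all tested genes.

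At day 0 the 2 lines already differed in Timp1, Timp2 and Timp3. D/KO had more Timp1 (316, 343 and 570 CPM against 212, 218 and 241 CPM), and less Timp2 (2260, 2280 and 2450 CPM against 3220, 3270 and 3380 CPM). D/KO also had less Timp3 (679, 794 and 798 CPM against 1150, 1310 and 1440 CPM), and no range overlapped. The differences were 0.87 ± 0.19 (log2) for Timp1 (adjusted p = 0.000248), -0.50 ± 0.09 for Timp2 (3.52e-05) and -0.78 ± 0.17 for Timp3 (0.000352). With VC at day 0, Timp2 (-0.44 ± 0.09, adjusted p = 0.000388) and Timp3 (-0.61 ± 0.17, adjusted p = 0.00906) were still lower in D/KO, and Timp1 differed by -0.10 (95% interval -0.47 to 0.28). The Timp3 call with VC was lost without WT day 0 + VC replicate 3 (adjusted p = 0.0566).

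Among Timp1 to Timp3, 3 differed between D/KO and WT at day 0 and 2 at day 0 with VC, where 43.2% and 20.3% of all tested genes did. The 6 macrophage and leukocyte markers summed to 80.6 to 155 CPM in WT at day 0, with all 6 at 1 CPM or more, against 13.3 to 14.0 CPM in D/KO, with 2 at 1 CPM or more and none at 0. The 5 endothelial markers summed to 611 to 670 CPM in D/KO, with 4 at 1 CPM or more, against 14.9 to 17.6 CPM in WT, with 1. The 5 smooth muscle and pericyte markers summed to 147 to 190 CPM in D/KO and to 21.4 to 25.4 CPM in WT, with 4 at 1 CPM or more in each. The 9 keratinocyte markers summed to 3.87 to 5.42 CPM in D/KO and to 22.3 to 29.4 CPM in WT, with 2 in each. Their part in the Timp differences was not tested.

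In the inhibitor table, D/KO control was compared with WT tail tip. D/KO control stood at 363, 372 and 476 CPM for Timp1 and WT tail tip at 234, 337 and 393 CPM, and the ranges overlapped. Of Timp1, Timp2 and Timp3, 0 differed in edgeR and in DESeq2, and 0 had an unadjusted p under 0.05, where 34.6% of the 15652 tested genes were called. Timp1 differed by 0.33 (95% interval -0.27 to 0.93), Timp2 by -0.07 (-0.32 to 0.18) and Timp3 by 0.07 (-0.99 to 1.12). Without the length trend Timp1 was higher in D/KO by 0.77 (adjusted p = 4.97e-08), and short genes moved by a median of -0.45 in this contrast.

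ALK5 inhibition lowered Timp1 in D/KO fibroblasts. The control libraries stood at 363, 372 and 476 CPM. Repsox gave 146, 156 and 271 CPM, Vactosertib 169, 198 and 240 CPM and A83-01 120, 136 and 159 CPM, all below the control libraries. Timp1 fell by 1.08 ± 0.29 (log2), or 2.11-fold, with Repsox (adjusted p = 0.0105), by 1.00 ± 0.29, or 2.00-fold, with Vactosertib (0.0199) and by 1.54 ± 0.29, or 2.92-fold, with A83-01 (0.000386). The 4 contrasts share the same 3 control libraries.

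The Repsox call for Timp1 was lost without D/KO control replicate 1 (adjusted p = 0.0504), Repsox replicate 1 (0.0574) or Repsox replicate 3 (0.0540), and the Vactosertib call without D/KO control replicate 1 (0.0848), Vactosertib replicate 1 (0.0663) or 2 (0.0912). Without the length trend, in the fit of all libraries, the falls were 1.28 with Repsox (adjusted p = 6.75e-11), 1.19 with Vactosertib (2.98e-10) and 1.62 with A83-01 (1.06e-12).

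DMH-1, the ALK2 inhibitor, gave Timp1 at 210, 238 and 274 CPM, also below every D/KO control library. The difference of -0.75 ± 0.29 (log2) did not pass (adjusted p = 0.144). In the fit without the length trend it did (-0.83, adjusted p = 3.01e-07), as it did with the libraries that stand apart left out (adjusted p = 0.00271) and in a fit of the groups alone (0.00362).

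ALK5 inhibition raised Timp2. The control libraries were at 1880, 2040 and 2150 CPM, Repsox at 2680, 3430 and 3660 CPM, Vactosertib at 3020, 3030 and 3450 CPM and A83-01 at 3850, 3860 and 4080 CPM. No treated library reached down to the controls. Timp2 rose by 0.69 ± 0.12 (log2), or 1.61-fold, with Repsox (adjusted p = 0.000255), by 0.65 ± 0.12, or 1.56-fold, with Vactosertib (0.000565) and by 0.96 ± 0.12, or 1.94-fold, with A83-01 (3.26e-06). DMH-1 gave 2440, 2460 and 2520 CPM, above the controls, with a difference of 0.29 ± 0.12 that did not pass (adjusted p = 0.180) except with the libraries that stand apart left out (adjusted p = 0.0158).

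Timp3 did not pass with any inhibitor in the fit of all groups, and its spread was wide. The control libraries were at 543, 736 and 804 CPM and Repsox at 264, 793 and 846 CPM, where the low value is replicate 2. The differences were -0.13 with Repsox, -0.09 with Vactosertib, -0.53 with A83-01 and -0.21 with DMH-1, each with a 95% interval about 1 log2 unit wide on either side (for A83-01, -1.58 to 0.53). In a fit of control and A83-01 alone, Timp3 was lower with A83-01 (-0.536, adjusted p = 0.0296). Without Repsox replicate 2 the Repsox difference of Timp3 was 0.24, of the opposite sign. Among Timp1 to Timp3, 2 changed with Repsox, 2 with Vactosertib, 2 with A83-01 and 0 with DMH-1, beside 20.7%, 18.1%, 27.5% and 7.25% of all tested genes. DESeq2 also called none with DMH-1, and Timp1 and Timp2 had an unadjusted p under 0.05 there (0.0179 and 0.0259).

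**Figure D3:**
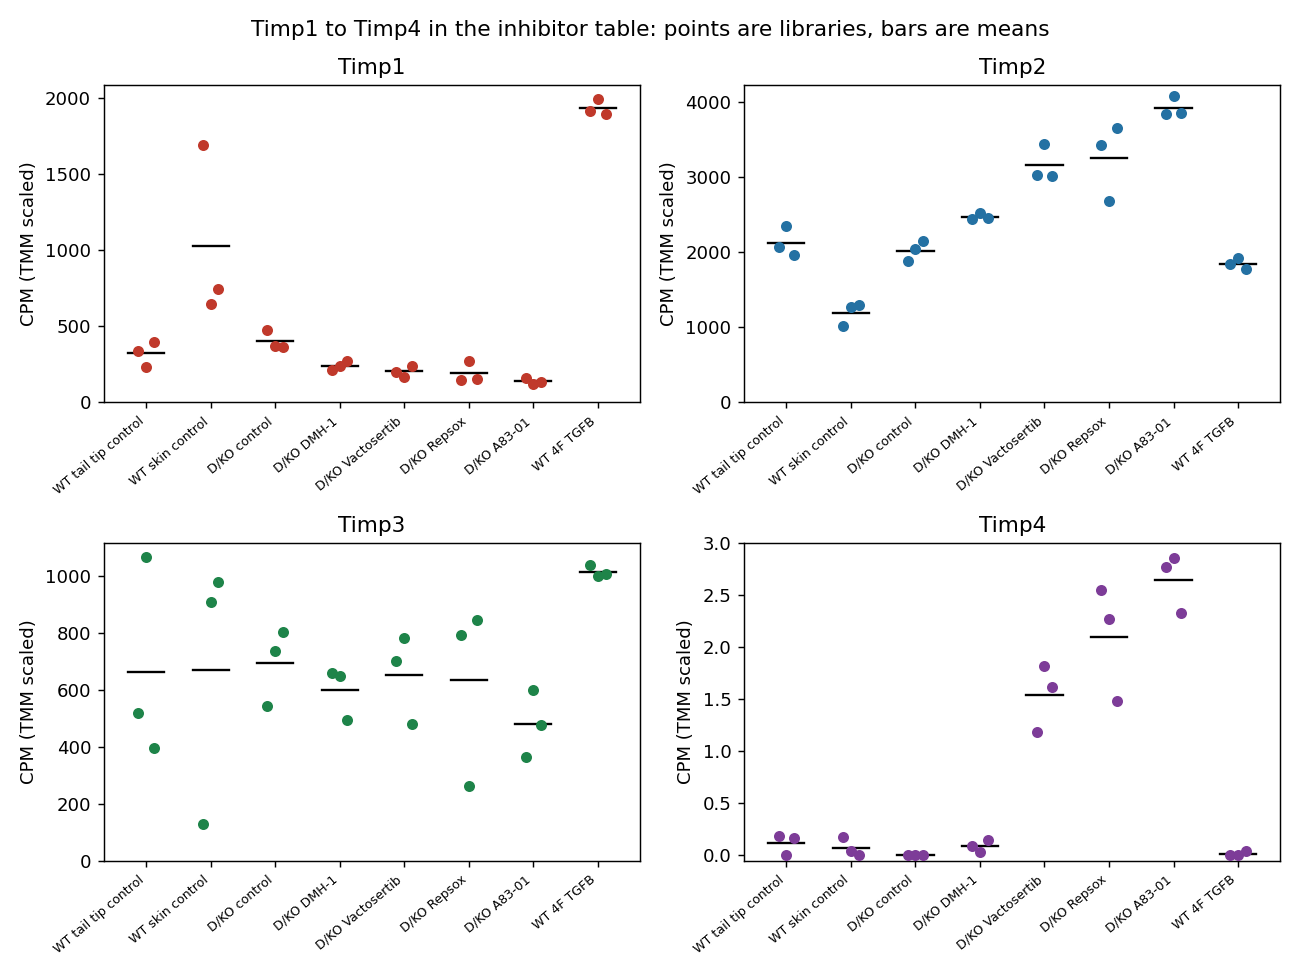
Points are libraries in CPM (TMM scaled) for each member in the 8 groups of the inhibitor table, and bars are means of 3 libraries. Timp1 is lowest and Timp2 highest with A83-01 (138 and 3930 CPM on average), Timp4 is seen almost only with the 3 ALK5 inhibitors, and Timp1 is highest in the WT 4F TGFB group (1930 CPM).

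Timp4 was the member with the sharpest on and off pattern. It had 0 counts in all 3 D/KO control libraries, for which a limit of 0.0492 CPM over the group (3 counts) was used. It had 67, 57 and 43 counts in the Repsox libraries, 25, 48 and 31 in the Vactosertib libraries and 72, 75 and 63 in the A83-01 libraries. These are levels of 1.19 to 2.86 CPM, so every ALK5 inhibitor library held Timp4 reads and no D/KO control library did. Against the limit that a count of 0 allows, Timp4 was at least 42.2-fold higher with Repsox, at least 31.7-fold higher with Vactosertib and at least 53.8-fold higher with A83-01. Timp4 passed the filter on low counts only through the 3 ALK5 inhibitor groups, although it still passed with any 1 of them dropped, so its p-values are those of the fit with no filter (edgeR adjusted p = 1.23e-08, 1.22e-07 and 1.72e-09). Intervals and limits from counts cover counting error only.

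DMH-1 libraries held 3, 1 and 3 counts of Timp4, or 0.0840 CPM over the group (95% exact Poisson interval 0.0338 to 0.173). This did not pass against control (adjusted p = 0.222 with no filter). The host gene Syn2 was near 0 in this table as well, with 89 counts over all 24 libraries. The sum of the 12 fibroblast markers ran from 80100 to 85500 CPM in the control and from 41300 to 53400 CPM with the 3 ALK5 inhibitors. The 5 Schwann and melanocyte markers summed to 8.09 to 10.8 CPM in the control, with 3 at 1 CPM or more and none at 0, and to 15.5 to 40.8 CPM with the ALK5 inhibitors, with 4 at 1 CPM or more and none at 0. The 4 cartilage markers summed to 26.1 to 31.8 CPM in the control and to 5.45 to 9.3 CPM with the ALK5 inhibitors. In each of these groups 1 was at 1 CPM or more, and up to 2 were at 0. The 5 endothelial markers summed to 270 to 313 CPM in the control and to 115 to 155 CPM with A83-01. With Repsox (173 to 317 CPM) and Vactosertib (238 to 309 CPM) the endothelial sum overlapped the control. The part of these lists in the Timp results was not tested.

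Compounds were compared at matched dose in 2 pairs. At 0.1 µM, Repsox and Vactosertib differed for Timp1 by -0.08 (log2, 95% interval -0.68 to 0.52), for Timp2 by 0.04 (-0.21 to 0.29) and for Timp3 by -0.045 (-1.10 to 1.01). Timp4 had 1.33 times the pooled level with Repsox (counting interval 1.04 to 1.72), which did not pass between libraries (edgeR adjusted p = 1). For all genes, 0% of 15652 were called in this contrast by edgeR, 6 by DESeq2, and 347 (2.22%) had an unadjusted p under 0.05.

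At 1 µM, A83-01 and DMH-1 differed for Timp2, which was 1.59-fold higher with A83-01 (0.67 ± 0.12, adjusted p = 0.000336), and for Timp4, with a pooled ratio of 31.5 (counting interval 15 to 79.4, adjusted p = 5.3e-08 with no filter). Timp1 was lower with A83-01 by 0.80 ± 0.29 (-0.80, adjusted p = 0.0565), which missed the threshold, and passed without the length trend (-0.789, adjusted p = 7.81e-08). It also passed in DESeq2 (0.0321), with no filter (0.0152), without the WT skin and WT 4F TGFB groups (0.0162), without the libraries that stand apart (0.000559) and in a fit of the groups alone (0.000663). Timp3 differed by -0.32 (95% interval -1.38 to 0.73). Of Timp1, Timp2 and Timp3, 1 passed here, beside 20.5% of all tested genes. A83-01 at 1 µM and the other ALK5 inhibitors at 0.1 µM differed in dose, so their values stand side by side only.

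**Figure D4:**
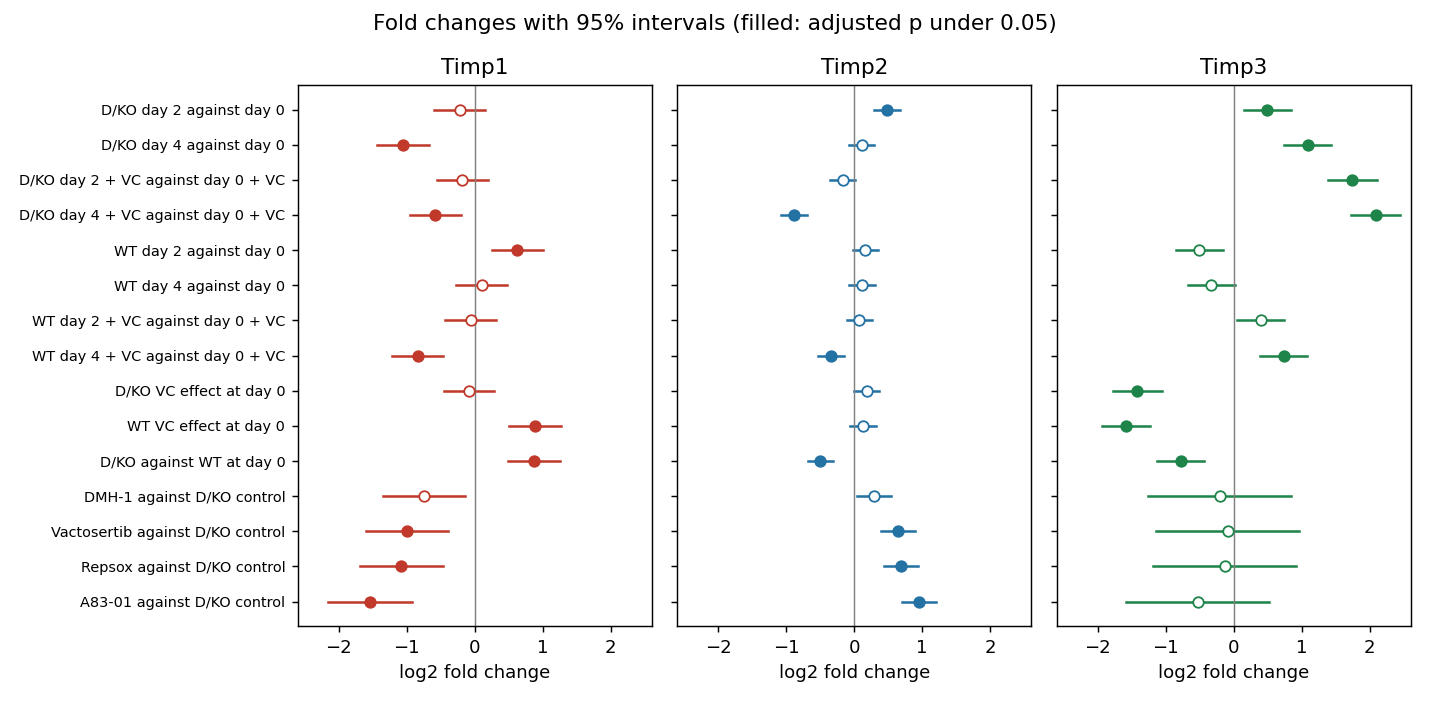
Log2 fold changes of Timp1, Timp2 and Timp3 in 15 comparisons, with lines for 95% intervals and filled points for an adjusted p under 0.05. Timp3 lies at 1.09 and 2.09 in the D/KO day 4 courses and within 0.53 of 0 with all inhibitors, where its intervals are widest.

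Timp4 in the reprogramming table was low, with most of its counts in WT libraries. It had 10, 14 and 11 counts in the WT day 0 libraries (0.552, 0.752 and 0.562 CPM) and 0 in all 3 D/KO day 0 libraries, so it was at least 10.3-fold higher in WT. Timp4 passed the filter on low counts through the WT day 0 libraries alone, so p-values from the fit of all genes with no filter are given. The adjusted p was 0.00661 in edgeR, and DESeq2, which used the filtered genes, gave 0.3. WT day 2 held 9 counts in all and WT day 4 held 4, a pooled ratio of day 0 to day 4 of 8.78 (counting interval 3.14 to 34). WT day 0 with VC held 3 counts, a ratio of 9.77 to it (3.08 to 49.7), and WT day 2 and day 4 with VC held 1 each. With no filter neither difference passed between libraries (edgeR adjusted p = 0.199 and 0.177), and both are given as values only.

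The D/KO groups together held 1 count of Timp4 over 18 libraries, in D/KO day 4. In the inhibitor table the WT tail tip control held 9 counts, WT skin 5 and WT 4F TGFB 1. In WT tail tip these were 5, 0 and 4 counts by library, against 0 in all 3 D/KO control libraries, so Timp4 was at least 2.38-fold higher in WT tail tip against the limit that a count of 0 allows. The difference passed with no filter (edgeR adjusted p = 0.0314) and in DESeq2 (0.0164). It no longer passed without any 1 of the 3 D/KO control libraries (0.0809, 0.0764 and 0.0666), without WT tail tip replicate 1 (0.099) or without replicate 3 (0.0787).

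Skin and tail tip WT controls differed in the balance of Timp1 and Timp2. Timp1 stood at 646, 742 and 1690 CPM in skin against 234, 337 and 393 CPM in tail tip, and Timp2 at 1020, 1270 and 1300 CPM against 1960, 2070 and 2350 CPM, with no overlap in either. Timp1 was higher in skin by 1.68 ± 0.29 (log2), or 3.19-fold (adjusted p = 0.000133), and Timp2 lower by 0.83 ± 0.12 (-0.83, adjusted p = 1.58e-05). The skin library at 1690 CPM of Timp1 held 127 CPM of Timp3, and its mates held 909 and 981 CPM. With the libraries that stand apart left out, Timp1 was still higher by 1.11 (adjusted p = 2.61e-05). Among Timp1, Timp2 and Timp3, 2 differed, beside 34.2% of all tested genes. The 5 smooth muscle and pericyte markers summed to 108 to 132 CPM in skin and to 22.2 to 31.2 CPM in tail tip, and the 5 endothelial markers to 121 to 210 CPM and 58.9 to 76.1 CPM, with 4 at 1 CPM or more and none at 0 for both lists in both groups. The 9 keratinocyte markers summed to 3.74 to 4.42 CPM in skin and to 14.9 to 18.2 CPM in tail tip, with 2 at 1 CPM or more in each and with 2 and 3 at 0. The part of these in the Timp differences was not tested.

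The WT 4F TGFB group had the highest Timp1 of the 8 inhibitor groups, at 1890, 1910 and 1990 CPM. This was 6-fold above WT tail tip (2.58 ± 0.31, adjusted p = 2.78e-07), in a contrast where the median of all genes was -0.11. Without the length trend the difference was 2.91 (adjusted p = 1.00e-17). Timp3 was at 1000, 1010 and 1040 CPM against 397, 519 and 1070 CPM, and neither Timp3 (0.62, adjusted p = 0.296) nor Timp2 (-0.20, adjusted p = 0.161) passed, though both did with the libraries that stand apart left out (0.0387 and 0.0313), none of which is in this contrast. Of Timp1, Timp2 and Timp3, 1 differed, beside 62.2% of all tested genes. Transgene, reporter, age and the TGFB label change together here and cannot be told apart. The WT day 0 group of the reprogramming table, with the same genotype, reporter, sex and age and no TGFB label, stood at 212 to 241 CPM for Timp1, but that table was scaled separately and no test was made across tables. The 5 endothelial markers summed to 1.20 to 1.88 CPM in this group, with none at 1 CPM or more, against 58.9 to 76.1 CPM in WT tail tip. The 5 smooth muscle and pericyte markers summed to 428 to 439 CPM against 22.2 to 31.2 CPM, with 4 at 1 CPM or more and none at 0 in either group. The 9 keratinocyte markers summed to 132 to 137 CPM against 14.9 to 18.2 CPM, with 2 at 1 CPM or more in each and with 1 and 3 at 0. The part of these lists in the Timp1 difference was not tested.

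To compare members with each other, counts were divided by exon length (RPKM, CPM per kilobase of exon). On this scale Timp2 was the largest part of the Timp sum in 18 of 20 groups, and Timp1 in WT skin and WT 4F TGFB. In D/KO at day 0 Timp1 made 39.4% ± 8.03 of the sum, Timp2 52.5% ± 7.44 and Timp3 8.11% ± 0.675 (SD, n = 3). At day 4 these shares were 20.9%, 60.6% and 18.5%. With VC the share of Timp3 went from 3.05% ± 0.249 at day 0 to 18.7% ± 5.46 at day 4.

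In the inhibitor table the D/KO control had 42.8% Timp1 and 49.1% Timp2, and A83-01 had 12.8% and 82.4%. WT 4F TGFB had 78.3% Timp1. The share of Timp4 was at most 0.0368%, with A83-01. Timp4 was thus the smallest part of the pool in every group, also with the ALK5 inhibitors.

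**Figure D5:**
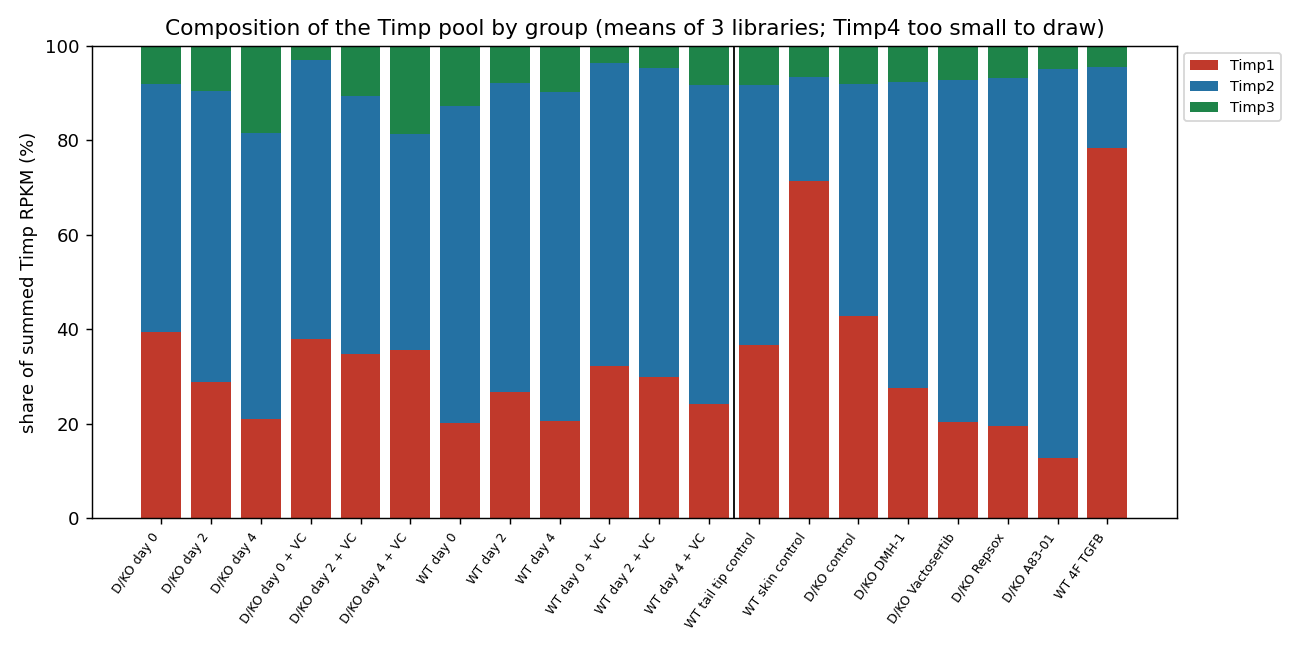
Stacked bars give the share of Timp1, Timp2 and Timp3 in the summed Timp RPKM (percent, means of 3 libraries), with reprogramming groups left of the line and inhibitor groups right of it. Timp2 fills 82.4% of the bar with A83-01, and Timp1 78.3% with WT 4F TGFB.

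The summed RPKM of the Timps was set beside that of 23 Mmps. The ratio was 2.06 ± 0.223 (SD, n = 3) in D/KO at day 0, 3.11 ± 0.179 at day 2 and 2.49 ± 0.0939 at day 4. With VC it was 1.24 ± 0.0323, 2.02 ± 0.0657 and 1.6 ± 0.15 at the same days, so each VC group lay below its partner without VC and their ranges did not overlap. At day 0 the Timp sum averaged 1150 RPKM both without and with VC, and the Mmp sum 559 and 927 RPKM. At day 2 the Timp sums were 1360 and 1100 RPKM and the Mmp sums 437 and 548 RPKM. At day 4 they were 1060 and 808 RPKM for the Timps and 427 and 505 RPKM for the Mmps. In WT the ratio was 2.08 ± 0.0417 at day 0 and 1.3 ± 0.0443 at day 0 with VC. There the Timp sum averaged 1260 and 1440 RPKM, and the Mmp sum 604 and 1110 RPKM. In the inhibitor table the D/KO control had 1.52 ± 0.0851, Repsox 2.21 ± 0.108, Vactosertib 2.15 ± 0.0183, A83-01 2.25 ± 0.0257 and DMH-1 1.25 ± 0.0696. Each ALK5 inhibitor group lay above the control libraries and DMH-1 below them. The Mmp sum averaged 698 RPKM in the control and, in the same order, 513, 521, 544 and 784 RPKM with the inhibitors. The Timp sum averaged 1060 RPKM in the control and 1130, 1120, 1220 and 980 RPKM with the inhibitors. Mmp2, the gelatinase whose activation involves Timp2, was the most abundant Mmp in every group but WT skin, where Mmp14 was.

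Of the 23 Mmps, 17 were tested in the reprogramming table. In D/KO at day 4, 2 were higher and 9 lower (64.7%, beside 37% of all tested genes, with a median of -0.79 log2 against 0.00), and with VC 3 were higher and 9 lower (70.6% beside 54.1%, median -1.09 against 0.01). In WT at day 4, 1 was higher and 5 lower (35.3% beside 24.5%), and with VC 1 and 10 (64.7% beside 44.7%). Here and in the lists below, courses with VC are measured from day 0 with VC. VC alone at day 0 gave 8 higher and 6 lower Mmps in D/KO (82.4% beside 26.1%) and 7 and 5 in WT (70.6% beside 29.4%). Mmp2 averaged 223 RPKM in D/KO at day 0, 451 RPKM at day 0 with VC and 194 RPKM at day 4 with VC. Mmp28 (epilysin) was higher at day 4 in all 4 courses, by 2.75 ± 0.14 in D/KO and by 5.41 ± 0.17 in WT with VC (adjusted p = 4.83e-18 and 6.80e-24). Mmp19 fell by 1.42 ± 0.11 in D/KO at day 4 (adjusted p = 4.15e-13).

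With the ALK5 inhibitors, 6, 6 and 5 of 15 tested Mmps were lower (Repsox, Vactosertib, A83-01) and 0 higher, or 40%, 40% and 33.3% called beside 20.7%, 18.1% and 27.5% of all tested genes, so that the A83-01 share was near that of all genes. Mmp13, a collagenase, fell by 6.03 ± 0.25 with Repsox, fell by 5.30 ± 0.24 with Vactosertib and fell by 7.41 ± 0.27 with A83-01 (adjusted p = 7.69e-13, 5.48e-12 and 7.73e-14). Mmp3, stromelysin 1, changed by -2.40, -2.41 and -2.82. DMH-1 gave 1 higher Mmp (6.67% beside 7.25%), Mmp11 (0.58 ± 0.15, adjusted p = 0.0212), which fell with the ALK5 inhibitors (-1.58, -1.33 and -1.60).

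Among 27 ADAM and ADAMTS proteases, several of which Timp3 blocks, 25 passed the filter in the reprogramming table and 24 among the inhibitor groups. In D/KO at day 4, 5 were higher and 14 lower (76%, beside 37% of all tested genes), and with VC 4 and 16 (80% beside 54.1%, median -1.57 against 0.01). VC alone at day 0 gave 10 higher and 5 lower in D/KO (60% beside 26.1%). Adamts4 fell by 2.58 ± 0.16 and Adam12 fell by 3.53 ± 0.25 in D/KO at day 4 (adjusted p = 8.26e-16 and 5.26e-14). Adamts5 fell by 2.79 ± 0.16 with VC (adjusted p = 4.90e-17). In WT at day 4, 4 were higher and 11 lower (60% beside 24.5%), and Adamts7 rose by 1.33 ± 0.11 (adjusted p = 2.99e-12). Repsox gave 5 higher and 10 lower (62.5% beside 20.7% of all tested genes), Vactosertib 5 and 9 (58.3% beside 18.1%), A83-01 6 and 10 (66.7% beside 27.5%), and DMH-1 2 and 3 (20.8% beside 7.25%). Adam8 fell with all 4 inhibitors, from 1.79 ± 0.25 with DMH-1 to 3.03 ± 0.26 with A83-01 (adjusted p = 7.96e-05 and 1.99e-08), and Adam33 rose with the 3 ALK5 inhibitors by 1.01 to 1.29.

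Other protease inhibitors moved both ways. Of 13 tested, D/KO at day 4 gave 5 higher and 5 lower (76.9%, beside 37% of all tested genes), and with VC 5 and 8 (100% beside 54.1%). Serping1, the C1 inhibitor, rose by 3.01 ± 0.17 in D/KO at day 4 and by 1.06 ± 0.16 in WT (adjusted p = 7.20e-17 and 2.94e-06). It also rose with each inhibitor, by 1.87 with Repsox, 1.70 with Vactosertib, 2.34 with A83-01 and 1.4 with DMH-1. Repsox gave 5 higher and 2 lower, Vactosertib 5 and 2 and A83-01 4 and 3 (53.8% each, beside 20.7%, 18.1% and 27.5% of all tested genes), and DMH-1 2 and 1 (23.1% beside 7.25%).

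The list of binding partners and uptake receptors held 12 genes, 11 of them tested in the reprogramming table. In D/KO at day 4, 4 were higher and 5 lower (81.8%, beside 37% of all tested genes), and with VC 3 and 4 (63.6%, near the 54.1% of all genes). Itgb1, an integrin that binds Timp1 with Cd63 and Timp2 with Itga3, fell by 0.94 ± 0.10 and Itga3 by 1.26 ± 0.15 in D/KO at day 4 (adjusted p = 5.94e-10 and 5.63e-09). Cd63 fell by 1.66 ± 0.14 with VC (adjusted p = 2.19e-12), in the contrast where Timp1 fell too. Kdr (VEGF receptor 2), which Timp3 blocks from its ligand, fell by 1.78 ± 0.23 at day 4 (adjusted p = 1.71e-07). Efemp1, a matrix protein that binds Timp3, rose with all 4 inhibitors, by 0.76 ± 0.11 with DMH-1 to 1.19 ± 0.11 with A83-01 (adjusted p = 0.000139 and 5.62e-08), and 3 were higher and 3 lower with each ALK5 inhibitor (50%, beside 20.7%, 18.1% and 27.5%).

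The order of the levels shows where neighbours cannot be separated. For Timp1 in the reprogramming table the group means ran from 413 CPM in WT day 0 + VC to 197 CPM in D/KO day 4, and every group overlapped its neighbour in library range. For Timp2 the order ran from 3790 CPM in WT day 2 + VC to 1440 CPM in D/KO day 4 + VC, which lay apart from its neighbour at 2330 CPM. For Timp3 the highest group was D/KO day 4 (1610 CPM) and the lowest D/KO day 0 + VC (284 CPM), and the 3 lowest groups did not overlap with each other. In the inhibitor table WT 4F TGFB and WT skin stood apart at the top for Timp1, and A83-01 stood apart at the top for Timp2.

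The genes most like each member were found by Pearson correlation of group means (log2 CPM) among genes with a mean of at least 10 CPM, as a description over groups that share controls, depth and time. Over the 12 reprogramming groups, Timp1 was nearest to Ethe1 (r = 0.89), Zcchc17 (0.89) and Lmna (0.886). Timp2 was nearest to Pik3r2 (0.965), Sirpa (0.942) and Klhl22 (0.938), and Timp3 to Brox (0.937), Prpsap2 (0.922) and Btf3l4 (0.919). Over the 8 inhibitor groups, Timp1 was nearest to Selenoi (r = 0.995), Acsl4 (0.994) and Bud31 (0.993), Timp2 to Ppm1l (0.989), Gm43682 (0.987) and Adam33 (0.987), and Timp3 to Riox2 (0.992). Timp4 was nearest to Cmtm4 (0.993). Among the members themselves, group means of Timp1 and Timp3 gave r = -0.71 over the 12 reprogramming groups and 0.62 over the 8 inhibitor groups, and those of Timp1 and Timp2 gave 0.23 and -0.82.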

How the data were processed

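RNA-seq of cultured fibroblasts (polyA RNA, 150 bp paired ends) was deposited as 2 tables of raw read counts per Ensembl gene, with gene coordinates and exon length. The submitters' processing notes name FastQC, Trim Galore, HISAT2, featureCounts of Subread and GRCm39, and versions and strandedness are not given in the sources used here. Library totals ran from 16538374 to 30599138 counts. Of 56980 identifiers, 56236 (98.7%) were named through GENCODE M39.

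The 20 groups of 3 libraries were taken from the labels. The deposited counts were analysed per table, all groups together, with edgeR 4.0.16 in R 4.3.3: TMM scaling, filterByExpr (minimum count 10, minimum total 15), and the quasi-likelihood F-test over 33 comparisons. P-values were two-sided and adjusted by Benjamini-Hochberg over all genes tested in a comparison (15832 and 15652), with calls at 0.05. CPM used TMM-scaled totals. Timp4 was compared through pooled counts, with a limit of 3 counts per group for a count of 0 and 95% exact intervals, and its edgeR p-values are given with no filter, a choice made after the data were seen, except where a library is left out. Scripts were tested on simulated data.

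The members and gene lists were chosen with earlier results of these data known. Of each list, at most the 3 called genes with the smallest p were named at day 4 and with each inhibitor, and of the genes most alike at most 5 per member. Alternatives were DESeq2 1.42.0, its size factors, median centring, other filters, a fold rule, fits of the compared groups alone, another baseline and each library left out. Promoter sequences are from RefSeq (table of GRCm38.p6), placed on GRCm39 by exact match.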

Additional observations from a re-analysis of the deposited data

Results flagged for a closer look

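The change over time differed between D/KO and WT, by the test of the difference itself, in 7 cases (edgeR's quasi-likelihood test, adjusted over all genes, change in D/KO minus change in WT, log2). For Timp3 the difference was 0.999 at day 2 (adjusted p = 0.00722), 1.419 at day 4 (5.60e-05), 1.345 at day 2 with VC (0.000139) and 1.357 at day 4 with VC (5.00e-05). For Timp1 it was -0.845 at day 2 (adjusted p = 0.0430) and -1.155 at day 4 (0.00190). For Timp2 it was -0.542 at day 4 with VC (adjusted p = 0.00153). The D/KO and WT lines also differ in sex, age and reporter, and these cannot be told apart.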

How the results depend on the processing

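Of 99 results of Timp1 to Timp3, 49 were called. Of these, 33 were still called in every alternative other than a fold rule, and 35 were under the absolute log2 change of 1 that this rule asks. The 33 include Timp3 in WT day 4 with VC, a called rise (0.733) that became a called fall from day 0 without VC (-0.854). Under the fold rule the number of Timp1 to Timp3 called went to 0 for D/KO day 2, WT day 2, WT day 4 with VC, the steps from day 2 to day 4 in all 4 courses, the genotype difference at day 2, VC at days 2 and 4 in both lines, D/KO against WT at day 0 with and without VC, Vactosertib, and A83-01 against DMH-1. It went to 1 for D/KO day 4 with VC, the genotype difference at day 4 with VC, VC at day 0 in WT, Repsox, A83-01 and WT skin. With day 0 without VC as baseline the number was 0 for D/KO day 2 with VC, 2 for WT day 2 with VC, 1 for WT day 4 with VC and 2 for the genotype difference at day 2 with VC. In DESeq2 it was 2 for D/KO day 2 with VC, WT day 2, and A83-01 against DMH-1. With 10 counts in every library it was 2 for WT day 2, and with DESeq2's size factors 2 for WT day 2 and 0 for WT day 4 against day 2. With no filter it was 2 for WT day 2, 1 for WT day 4 and for WT day 2 with VC, 3 for D/KO day 4 against day 2 with VC and for VC at day 4 in D/KO, and 2 for A83-01 against DMH-1. In fits of the compared groups alone it was 2 for WT day 4, 1 for WT day 2 with VC, the genotype difference at day 2 and DMH-1, and 2 for A83-01 against DMH-1. With the length trend removed it was 2 for WT day 4, 0 for WT day 4 against day 2, 1 for the same with VC, 1 for the genotype difference at day 2, 2 for VC at day 4 in D/KO, 1 for DMH-1, 2 for A83-01 against DMH-1 and 1 for D/KO control against WT tail tip. Without the libraries that stand apart it was 2 for DMH-1 and for A83-01 against DMH-1 and 3 for WT 4F TGFB, and without the WT skin and WT 4F TGFB groups 2 for A83-01 against DMH-1. The causes were not tested.

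Signs turned with the other baseline for Timp2 in D/KO day 2 with VC (0.012), Timp1 and Timp3 in WT day 2 with VC (0.823 and -1.188) and day 4 with VC (0.042 and -0.854), and Timp1 in the genotype difference at day 4 with VC (-0.706). With the length trend removed they turned for Timp1 and Timp2 in WT day 4 against day 2 (0.064 and 0.046), Timp1 in the genotype difference at day 4 with VC (-0.106), and Timp3 in D/KO control and WT skin against WT tail tip (-0.029 and -0.025). Timp2 in the genotype difference at day 4 turned with no filter (0.003), Timp3 with Repsox and in Repsox against Vactosertib without the libraries that stand apart (0.24 and 0.324), and Timp3 in WT skin with median centring (-0.008). Leaving out 1 library turned the sign of some uncalled values, whose ranges over the libraries left out were as follows for Timp1 in D/KO day 2 against day 0 (-0.414 to 0.093), Timp1 in WT day 2 + VC against day 0 + VC (-0.17 to 0.005), Timp3 in WT day 4 against day 2 (-0.074 to 0.408), Timp2 in the genotype difference at day 4 (-0.054 to 0.035), Timp1 in VC in D/KO at day 0 (-0.242 to 0.229), Timp1 in VC in D/KO at day 2 (-0.146 to 0.15), Timp2 in VC in WT at day 2 (-0.005 to 0.082), Timp3 in Repsox against D/KO control (-0.391 to 0.237), Timp3 in Vactosertib against D/KO control (-0.234 to 0.101), Timp1 in Repsox against Vactosertib (-0.429 to 0.075), Timp2 in Repsox against Vactosertib (-0.053 to 0.157), Timp3 in Repsox against Vactosertib (-0.311 to 0.318), Timp2 in D/KO control against WT tail tip control (-0.127 to 0.007), Timp3 in D/KO control against WT tail tip control (-0.198 to 0.601) and Timp3 in WT skin control against WT tail tip control (-0.358 to 0.552). In the number of Timp1 to Timp3 called, leaving out 1 library gave 0 to 2 for WT day 2, 0 to 1 for WT day 4 against day 2 and for VC at day 2 in WT, 1 to 3 for D/KO day 4 against day 2 with VC and for VC at day 4 in D/KO, and 1 to 2 for D/KO day 2, D/KO day 2 with VC, the genotype difference at day 2, VC at day 0 in D/KO, VC at day 4 in WT, D/KO against WT at day 0 with VC, Repsox and Vactosertib.

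No paired analysis was possible because the labels number libraries through each table and not within groups, so the groups compared share no replicate number. Depth limits Timp4 most, since all its calls among reprogramming groups rest on 35 counts in WT day 0. The spread of Timp3 in the inhibitor table, with standard errors near 0.504 (Timp3, Repsox), limits the changes detectable there.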
